A study of Mus musculus with 6 samples.

Results

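The genes described here are those of the motile cilium and of the transcription factor programme built on FOXJ1, measured by bulk poly(A) RNA-seq in cells grown from mouse embryonic stem cells. Members were the genes that the deposited annotation places under the ontology term for cilium movement, every axonemal dynein heavy chain gene (Dnah), and 10 genes listed by name: Foxj1, Rfx2, Rfx3, Pkd1l1, Efcab1, Cfap44, Cfap52, Enkur, Zmynd10 and Ttc25. Dnah11 was left out by rule, as were genes of the triplicated chromosome 16 segment, where no candidate lay. This gave 60 of 55487 genes, 46 by ontology and 14 by name only. They were separated by hand, and not by measured level, into 56 ciliary genes and 4 taken as broadly expressed: Camsap3, Cyb5d1, Dync1h1 and Ift88.

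The study compared 3 libraries from Ts1Cje cells with 3 from wild-type cells. Ts1Cje mice, which model Down syndrome, have an additional copy of the distal end of chromosome 16, and the study asked why their embryos have fewer microglia. Ts1Cje also carries a deletion on another chromosome that holds Dnah11, the axonemal dynein gene left out above. Both genotypes were kept as stem cells with LIF and KnockOut serum replacement, then exposed to activin A, BMP-4, FGF2 and VEGF, and collected on day 4 as primitive macrophage progenitors, the first blood cells from which macrophages arise. The labels number the samples of each genotype as lots 1 to 3 without saying whether a lot is a separate line, animal or culture. The p-values therefore reflect only how these samples scatter, part of which may be technical, and genotype cannot be told apart from cell line.

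A motile cilium is a microtubule-based extension that beats. Its core, the axoneme, carries rows of dynein motors on outer microtubule doublets, and the motors are assembled in the cytoplasm before transport. Radial spokes and a central apparatus coordinate the beat. FOXJ1 is the transcription factor that switches on motile cilium genes, and RFX factors act with it by binding the X-box, a promoter motif. In the early mouse embryo, motile cilia form in the node, where the flow they drive helps set left and right, and blood progenitors are not known for them.

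Of the 6 libraries, the wild-type ones held 18459721, 18587516 and 18513795 counts and the Ts1Cje ones 18320582, 16577065 and 19010856. The genotypes separated on the first principal component (79.1% of the variance), where wild-type replicate 1 stood apart from its group at -50, against -72.4 and -73 for the others. Of markers that define the labelled cell type, Ptprc had no count in any library, Spi1 had 9 and 11 counts over the wild-type and Ts1Cje libraries, and Csf1r stood at 14.3 ± 1.47 CPM in wild-type and 18.1 ± 2.12 CPM in Ts1Cje (SD, n = 3). CPM are counts scaled to library size by TMM, and values for 3 libraries are given in the order of replicates 1, 2 and 3. A gene is called changed at a Benjamini-Hochberg adjusted p under 0.05 in edgeR's quasi-likelihood test, and log2 fold changes are Ts1Cje over wild-type with their SE. Ptprc, Spi1 and Csf1r belong to a list of 14 blood and vessel markers. Of its 12 tested genes, 8 were called lower in Ts1Cje (66.7%) and 2 higher (16.7%), beside 20.5% and 23.3% of all tested genes.

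Ciliary genes were more often called higher in Ts1Cje cells than lower. Of the 56, 41 had enough counts to be tested. Among these, 21 rose, 3 fell and 17 were not called. Their median log2 fold change was 0.80, against -0.01 over all 17315 tested genes. The share of all tested genes called was 43.8%, with 23.3% higher and 20.5% lower, and the ciliary shares were 51.2% and 7.32%. At least 2-fold higher were 18 ciliary genes and at least 2-fold lower 2, beside 11.7% and 6.41% of all tested genes. Every Ts1Cje library lay above every wild-type library in 24 of the 41, and below in 3, beside 28.8% and 26.4% of all tested genes. Without wild-type replicate 1 the ciliary count was 22 higher and 2 lower. A member rare in wild-type cells could pass the count filter through its Ts1Cje libraries alone, so these counts describe the tested members and support nothing beyond them. Restricted to the 42 ciliary members found by ontology, 29 were tested, of which 15 rose and 1 fell, with the same median of 0.80. With all 60 members as 1 group, 45 were tested, of which 22 rose (48.9%) and 4 fell (8.89%).

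The 15 untested ciliary genes had too few counts for a test. In 12 of them the Ts1Cje libraries held more counts together, in 3 the sums were equal, and 2 of these 3, Pih1d3 and Gm44503, had no count in any library. Gm44503 shares 26.7% of its exonic length with Dnaaf4 and 73.3% with Ccpg1 on the same strand. Its lack of counts therefore does not show that it was rare. Beside those named with their roles, the wild-type and Ts1Cje counts were 5 and 11 for Cfap221, 4 and 15 for Pih1h3b, 2 and 10 for Ccdc63, 6 and 13 for Rsph6a, 1 and 5 for Ttc29, and 0 and 2 for Ttll8. Summed over the ciliary members, TPM (a length-scaled abundance) came to 144, 143 and 139 in wild-type libraries and to 258, 281 and 260 in Ts1Cje libraries. Without the 3 transcription factors the sums were 117, 113 and 111 against 192, 197 and 191. All Ts1Cje sums lay above all wild-type sums.

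**Figure D1:**
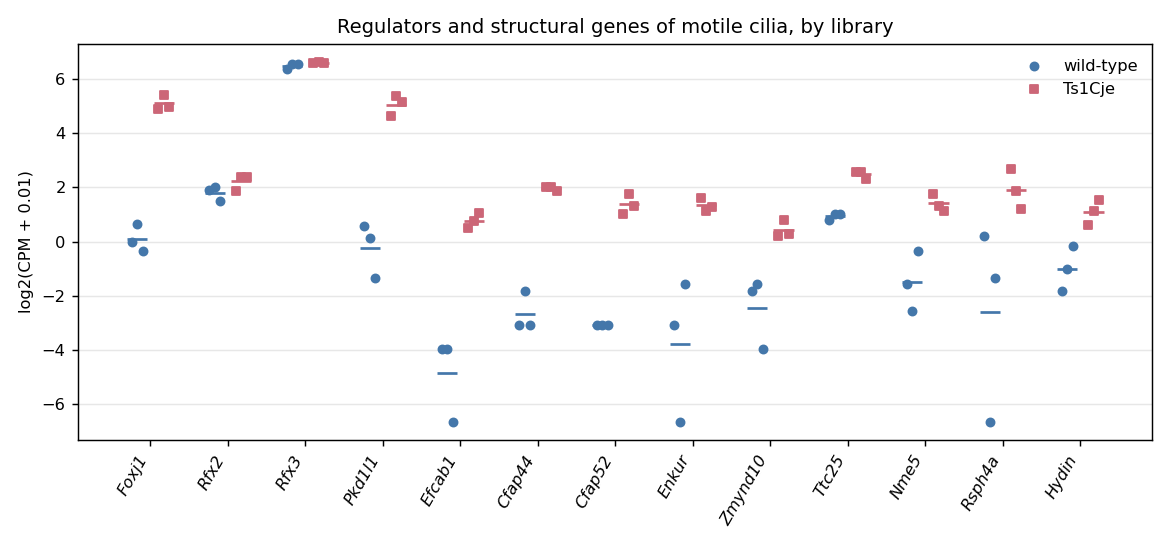
Level of the leading regulators and structural members in each library, as log2(CPM + 0.01), with 1 point for each of the 3 wild-type and 3 Ts1Cje libraries and bars at the mean of the log values. Foxj1 and Pkd1l1 reach 29.6 to 42.5 and 24.4 to 40.8 CPM in Ts1Cje, Rfx3 lies near the same level in both genotypes, and Efcab1, Enkur and Rsph4a have a wild-type library with no count.

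The promoters of some members carry the X-box, and 6 stretches are shown because they put genes that rose beside genes with flat values. Each is the 80 bases before the gene's RefSeq start (GRCm38.p6), written 5′ to 3′ on the gene's strand, with matches in capitals. Hydin (chr8:110266897-110266976, plus strand) and Cfap44 (chr16:44394719-44394798, plus strand) hold the longer X-box GTTGCCNNNGNAAC, and Enkur (chr2:21205366-21205445, minus strand) and Dnah10 (chr5:124725005-124725084, plus strand) hold only its core GTTGCC. Dnaic2 (chr11:114727339-114727418, plus strand) and Ropn1l (chr15:31453690-31453769, minus strand) hold the core too. Ropn1l was not called, and Dnaic2, with 19 counts in each genotype, was not tested.
Hydin: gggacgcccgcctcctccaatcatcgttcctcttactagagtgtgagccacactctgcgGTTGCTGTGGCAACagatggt
Cfap44: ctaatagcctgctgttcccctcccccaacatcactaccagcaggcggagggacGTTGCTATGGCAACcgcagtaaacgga
Enkur: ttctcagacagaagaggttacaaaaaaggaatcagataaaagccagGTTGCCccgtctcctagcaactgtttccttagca
Dnah10: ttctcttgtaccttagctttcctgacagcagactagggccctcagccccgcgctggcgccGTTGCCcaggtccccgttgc
Dnaic2: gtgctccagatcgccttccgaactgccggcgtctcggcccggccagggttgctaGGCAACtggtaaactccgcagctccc
Ropn1l: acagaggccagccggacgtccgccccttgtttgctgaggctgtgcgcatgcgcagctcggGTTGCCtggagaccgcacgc

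Motifs were searched on both strands in windows of 300 bases, 250 before and 50 after each start, available for 42 of the 56 ciliary members. The longer X-box contains the core, so a match to it counts for both. The core was present for 5 of 14 ciliary genes that rose (35.7%) and for 14 of 28 other ciliary genes, beside 14.14% of 27025 genes in the table. The longer form was present for 2 of 14 and 2 of 28, beside 0.5% of genes. It began at base -21 in Hydin and at base -27 in Cfap44, counting back from the start, and read on the opposite strand in both. The other 2 carriers were Pih1h3b and Pih1d3, which were not tested. The forkhead motif TGTTTAC was present for 0 of 14 and for 1 of 28, Dnah17, beside 4.05% of genes. A match describes these letters and is not a binding site.

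Of the transcription factors, Foxj1 rose about 31-fold while Rfx2 and Rfx3 were not called. Foxj1, the master regulator of motile cilium genes, stood at 0.974, 1.57 and 0.767 CPM in wild-type libraries and at 29.6, 42.5 and 31.2 CPM in Ts1Cje libraries. Every Ts1Cje library was high and every wild-type library low, with no overlap, an order that 28.8% of all tested genes had. Its log2 fold change was 4.95 ± 0.25 (adjusted p = 1.4e-06), a fold of 30.9, and its TPM went from 1.35 ± 0.518 to 42.4 ± 9.23 (SD, n = 3). Rfx3, an X-box factor of node cilia, was present in both genotypes at 81.1, 92.0 and 92.3 CPM in wild-type and 96.1, 98.0 and 95.7 CPM in Ts1Cje. Its groups did not overlap, yet the difference of 0.13 ± 0.07 on the log2 scale was not called (adjusted p = 0.183). Rfx2, a related factor, had 3.73, 4.01 and 2.80 CPM against 3.67, 5.24 and 5.25 CPM. Those groups overlapped, and its log2 fold change of 0.43 ± 0.24 was not called either (adjusted p = 0.183).

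The same bulk comparison holds for every gene below, and in bulk samples fewer cells of a type and less RNA per cell cannot be told apart. Markers of other cell types moved with genotype, and their counts stand beside 23.3% higher and 20.5% lower among all tested genes. Of the endoderm markers, 14 of 15 rose, and their summed level went from 443 to 522 CPM in wild-type to 1358.2 to 1701 CPM in Ts1Cje. Of the pluripotency and epiblast markers, 10 of 11 rose, from 293 to 510 CPM to 1636.9 to 2292.7 CPM. Of the blood and vessel markers, 8 of 12 tested fell and 2 rose, from 672 to 775 CPM to 107 to 198 CPM. Of the fibroblast and feeder markers, 5 of 9 were tested and 3 fell, from 336 to 362 CPM to 241 to 272 CPM. The part of these shifts in the ciliary values was not tested.

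Pkd1l1 encodes a channel-like protein of node cilia that acts in the sensing of left-right flow. It was the most changed member of more than 3 counts in wild-type. Its level was 1.46, 1.08 and 0.384 CPM in wild-type and 24.4, 40.8 and 35.4 CPM in Ts1Cje. Wild-type replicate 3 was the lowest, and the groups did not overlap. The log2 fold change was 5.09 ± 0.36 (adjusted p = 2.62e-05).

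Outer dynein arms give most of the beat's force, and their chains differed from one another. Of 6 members, 4 were tested and 2 rose, beside 23.3% of all tested genes. Dnah5, the outer arm heavy chain most often affected in inherited ciliary disease, had 2, 4 and 0 counts in wild-type and 22, 19 and 27 in Ts1Cje, which do not overlap. It rose by 3.45 ± 0.63 on the log2 scale (adjusted p = 0.00165), a call lost with limma-trend on log2(TPM + 1) (0.0527). Dnaic1, an intermediate chain, rose from 0.649, 0.433 and 0.384 CPM to 2.63, 2.15 and 2.05 CPM, again with no overlap (log2 fold change 2.20 ± 0.35, adjusted p = 0.000763). Dnah9, the heavy chain that pairs with Dnah5 in the distal axoneme, was too rare for the test, with 0, 1 and 3 counts against 9, 9 and 12. Its groups did not overlap. In contrast, Dnaic2, the partner intermediate chain, held 19 counts in each genotype. Dnah17 and Dnah8, heavy chains known from sperm flagella, gave log2 fold changes of -0.01 ± 0.15 (adjusted p = 0.973) and 0.29 ± 0.59 (adjusted p = 0.72).

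Inner dynein arms shape the bend. Of 12 members, 9 were tested, and 3 rose while 3 fell, 33.3% each way beside 23.3% and 20.5% of all tested genes. Dnah6 had 4, 0 and 2 counts in wild-type and 48, 42 and 48 in Ts1Cje. All Ts1Cje libraries were alike and far above wild-type, and the log2 fold change was 4.47 ± 0.56 (adjusted p = 0.000173). Dnah10 stood at 0.541, 0.271 and 0.439 CPM against 1.86, 1.55 and 1.42 CPM, without overlap. It rose by 1.93 ± 0.39 on the log2 scale (adjusted p = 0.0029), again not called with limma-trend on log2(TPM + 1) (0.0648). The third riser was Wdr78, an intermediate chain, by 0.80 ± 0.24 (adjusted p = 0.0204), a call lost without Ts1Cje replicate 2 (0.0706) or Ts1Cje replicate 3 (0.0551).

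Dnah2 and Dnah14 went the other way. Dnah2, an inner arm heavy chain, stood at 22.2, 21.5 and 17 CPM in wild-type and 6.74, 10.1 and 6.19 CPM in Ts1Cje. Every wild-type library was higher, and Dnah2 fell by 1.40 on the log2 scale (SE 0.20, adjusted p = 0.000344). Dnah14 was at 40.4, 40.4 and 35.0 CPM in wild-type and 23.6, 27.4 and 23.9 CPM in Ts1Cje, with no overlap. It fell by 0.63 on the log2 scale (SE 0.10, adjusted p = 0.000928). Dnah14 shares 440 exonic bases (2.71% of its exonic length) with Lbr on the opposite strand, a far more abundant gene with a log2 fold change of -0.68 ± 0.06, and the counting strand is not given in the sources used here. The part of Lbr reads in the Dnah14 value was not tested.

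Dnah7a, Dnah7b and Dnah7c are near-identical copies, so reads may have been split between them and their values are uncertain. Dnah7c fell by 1.06 on the log2 scale (SE 0.38, adjusted p = 0.0458), from 1.89, 2.16 and 1.59 CPM to 0.877, 1.31 and 0.525 CPM. That call was lost with DESeq2 (adjusted p = 0.0629), with limma-trend on TPM (0.0896 and 0.121 by pseudocount), and without 5 of the 6 libraries taken one at a time (adjusted p 0.0599 to 0.143). Dnah7b gave 0.48 ± 0.21 (adjusted p = 0.096) and Dnah7a gave -0.54 ± 0.48 (adjusted p = 0.392). Neither was called. Dnah1, the remaining tested heavy chain, gave -0.19 ± 0.22 (adjusted p = 0.521). Among the untested, Dnah12 had 2 and 10 counts, a Ts1Cje to wild-type ratio of 5.1 with an exact 95% interval of 1.09 to 47.9 that covers counting error only. Dnah3 had 0 against 6 counts, 2.04-fold higher with the wild-type group set to a floor of 3 counts. Its Ts1Cje libraries held 0, 3 and 3 counts, so its groups overlapped. Dnali1, an inner arm light chain, had 19 and 34.

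**Figure D2:**
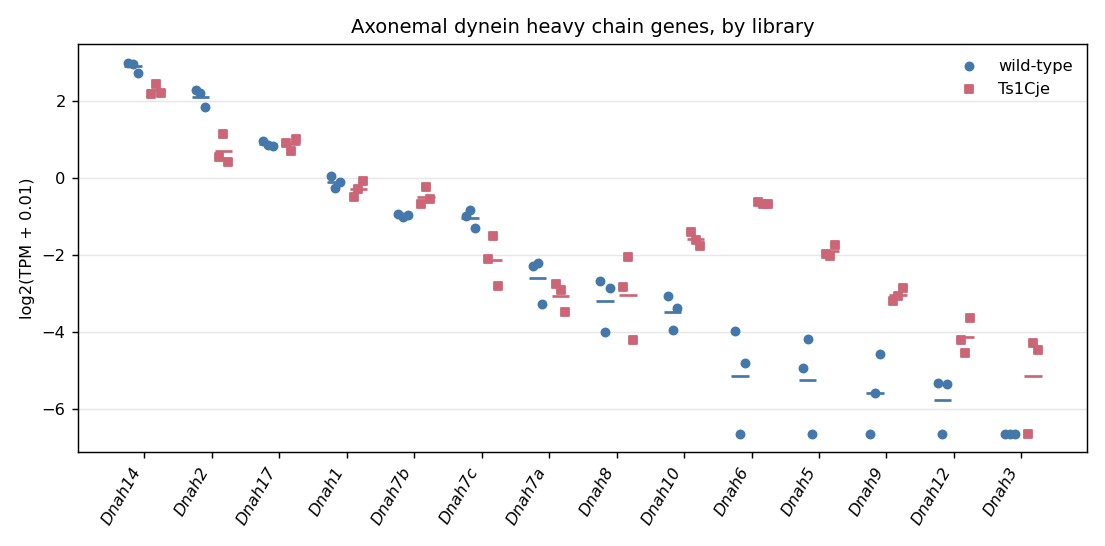
Level per length of the 14 dynein heavy chain members in each library, as log2(TPM + 0.01), in order of the wild-type level, with 1 point for each of the 3 wild-type and 3 Ts1Cje libraries and bars at the mean of the log values. Dnah6, Dnah5 and Dnah10 lie higher in Ts1Cje, whereas Dnah14, Dnah2 and Dnah7c lie lower.

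Taking the 14 heavy chains as a set, 11 were tested, of which 3 rose and 3 fell, and their median log2 fold change was -0.01. That is 27.3% each way, near the 23.3% and 20.5% of all tested genes. Of the chains that fell, Dnah14 and Dnah2 were the most abundant heavy chains per length in wild-type. Dnah14 had 7.5 ± 0.759 TPM and Dnah2 4.35 ± 0.699 TPM, whereas Dnah6 and Dnah5 had 0.0265 ± 0.0268 and 0.0224 ± 0.0223 TPM (SD, n = 3). In Ts1Cje, Dnah6 reached 0.622 ± 0.0109 TPM and Dnah2 still stood at 1.66 ± 0.474 TPM. Among all tested ciliary members, the 21 ciliary genes that rose had a median wild-type TPM of 0.451 (range 0.0224 to 5.45), and the 17 not called had one of 1.59 (0.109 to 44.1). Of the 8 genes with a log2 fold change of at least 3, 7 were below 1 TPM in wild-type. For such rare genes the test can call only large changes.

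Docking proteins fix the outer arm to the doublet, and all 4 tested of 6 rose, beside 23.3% of all tested genes. Efcab1 and Ttc25 were listed by name, and a member as rare in wild-type as Efcab1 could pass the count filter through Ts1Cje alone. The share therefore describes these genes only. Efcab1, a calcium-binding docking protein, had 1, 1 and 0 counts in wild-type and 26, 28 and 39 in Ts1Cje. The groups were far apart. The ratio was 47.5 (exact 95% interval 12.8 to 398, counting error only), with an adjusted p of 9.86e-05. Ttc25, part of the docking complex, rose from 1.73, 2.00 and 2.03 CPM to 5.92, 5.84 and 4.93 CPM, with no overlap (log2 fold change 1.53 ± 0.22, adjusted p = 0.000355). Ccdc151 and Ccdc114, 2 further docking proteins, rose by 1.05 ± 0.31 (adjusted p = 0.0203) and 0.74 ± 0.20 (adjusted p = 0.0135). The Ccdc151 call was lost without wild-type replicate 2, wild-type replicate 3 or Ts1Cje replicate 3 (adjusted p 0.0769, 0.0628 and 0.0726), and the Ccdc114 call without wild-type replicate 3 (0.0525). Armc4 was untested at 12, 1 and 0 counts against 8, 21 and 10, which overlap.

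Assembly factors fold and stack dynein arms in the cytoplasm. Of 7, 5 were tested and 2 rose, beside 23.3% of all tested genes. Zmynd10 had 5, 6 and 1 counts in wild-type and 21, 29 and 23 in Ts1Cje. It did not overlap and rose by 2.61 ± 0.53 on the log2 scale (adjusted p = 0.00294). Dnaaf1 rose by 0.72 ± 0.21 (adjusted p = 0.0193), a call lost without Ts1Cje replicate 2 (0.0766). It shares 584 exonic bases (20.7% of its exonic length) with the opposite-strand gene Taf1c, whose log2 fold change was 0.73 ± 0.11, so reads of the pair cannot be told apart here. Dnaaf5, the member at the highest level per length at 44.1 ± 2.28 TPM in wild-type among ciliary genes, gave 0.13 ± 0.08 (adjusted p = 0.245). Lrrc6 gave 1.22 ± 0.60 (adjusted p = 0.132) and Dnaaf4 0.39 ± 0.39 (adjusted p = 0.465). Dnaaf4 shares 59.2% of its exonic length with Gm44503 on the same strand and 37.4% with Gm37710 on the opposite strand. The part of these overlaps in its value was not tested.

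Radial spokes and the central apparatus regulate the stroke, and in each only some members rose. Of 6 spoke genes, 4 were tested and 2 rose, beside 23.3% of all tested genes. Nme5 rose from 0.325, 0.162 and 0.767 CPM to 3.40, 2.50 and 2.20 CPM, with no overlap (log2 fold change 2.67 ± 0.48, adjusted p = 0.00138). Rsph4a, a spoke head protein, had 21, 0 and 7 counts in wild-type and 115, 61 and 44 in Ts1Cje. Libraries of each genotype spread widely without overlapping. It rose by 2.99 ± 0.82 (adjusted p = 0.0216), and the call was lost with DESeq2 (0.0510) and without wild-type replicate 3 (0.0818) or Ts1Cje replicate 1 (0.0708). Maats1, at the spoke base, had no count in wild-type and 19, 23 and 7 in Ts1Cje, which is 16.7-fold higher with wild-type set to the floor of 3 counts. Rsph9, another spoke head protein, had 106 counts in each genotype (0.02 ± 0.28, adjusted p = 0.961). Ropn1l, a spoke stalk protein, gave -0.05 ± 0.32 (adjusted p = 0.912).

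Of 4 central apparatus genes, 3 were tested and 2 rose (66.7%, beside 23.3% of all tested genes). Hydin was rare in wild-type, so the limit of the count filter holds for this share too. Hydin, a giant central pair protein, had 5, 9 and 16 counts in wild-type and 28, 36 and 55 in Ts1Cje, with no overlap. It rose by 2.00 ± 0.45 on the log2 scale (adjusted p = 0.00536), and was not called with limma-trend on log2(TPM + 1) (0.0551). Cfap70 rose by 1.21 ± 0.37 (adjusted p = 0.0238), a call lost without wild-type replicate 1, Ts1Cje replicate 1 or Ts1Cje replicate 2 (adjusted p 0.0503 to 0.0769). Spef1, a microtubule-bundling protein of the central pair, gave 0.33 ± 0.24 (adjusted p = 0.296).

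Proteins inside and along the doublets held several of the most changed members. Of 4 genes for inner-lumen proteins, 3 rose (75.0%, beside 23.3% of all tested genes). Cfap52 and Enkur were listed by name and rare in wild-type, so this share too describes these genes only. Cfap52 had 2, 2 and 2 counts in wild-type and 37, 57 and 47 in Ts1Cje, with no overlap (log2 fold change 4.51 ± 0.45, adjusted p = 4.23e-05). It shares 194 exonic bases (8.36%) with the antisense gene 9130017K11Rik, itself higher by 2.31 ± 0.41. Enkur had 2, 0 and 6 counts against 56, 37 and 46 (4.08 ± 0.61, adjusted p = 0.000481). Every Ts1Cje library exceeded every wild-type one. The gene 1700007K13Rik, also named Pierce1, rose from 2.33, 1.46 and 1.10 CPM to 8.55, 6.32 and 8.24 CPM (2.24 ± 0.29, adjusted p = 0.00019). Ccpg1os gave 0.13 ± 0.23 (adjusted p = 0.691).

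Cfap44 tethers an inner arm motor to the doublet. It had 2, 5 and 2 counts in wild-type and 74, 68 and 69 in Ts1Cje, a tight and separate pair of groups, and rose by 4.53 ± 0.39 on the log2 scale (adjusted p = 1.71e-05). Ccdc39, the ruler that sets the axonemal repeat, was present in both genotypes at 14.8 ± 1.74 and 17.2 ± 0.777 CPM (SD, n = 3) and was not called (0.21 ± 0.13, adjusted p = 0.221). Cfap73, tested with 1.22 ± 0.56, was not called either (adjusted p = 0.107). Both share exonic bases with a far more abundant opposite-strand gene. For Ccdc39 it is Ttc14 (16.9% of the exonic length, log2 fold change -0.10 ± 0.07). For Cfap73 it is Ddx54 (8.47%, 0.14 ± 0.08). The part of such reads in the Ccdc39 and Cfap73 values was not tested. Of 3 sperm flagellum genes only Dnhd1 was tested, at 0.36 ± 0.25 (adjusted p = 0.283).

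**Figure D3:**
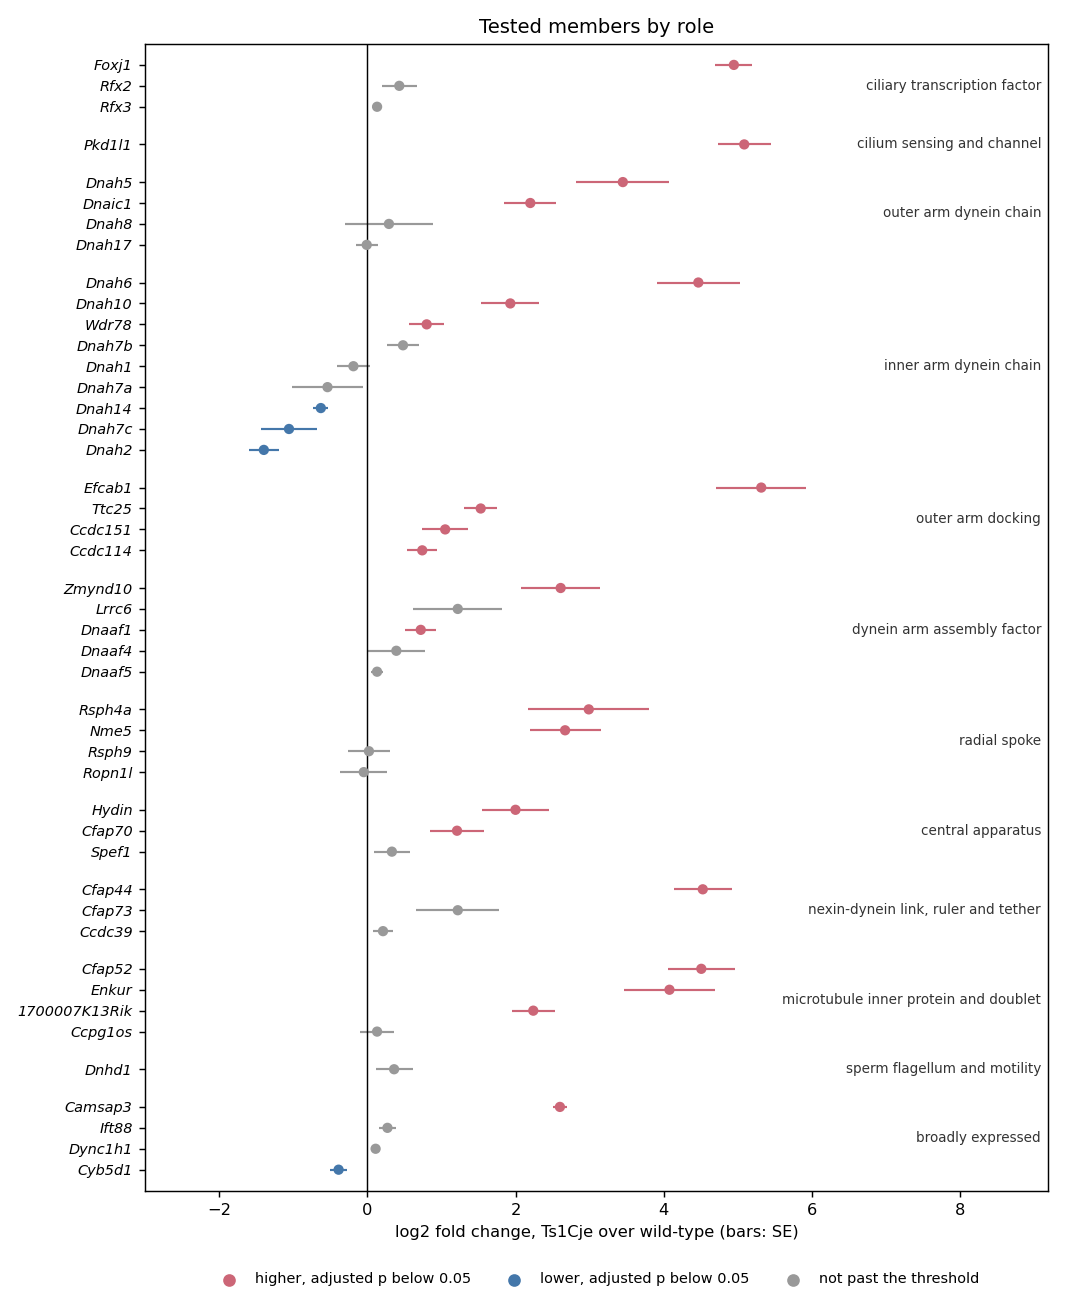
Log2 fold change (Ts1Cje over wild-type) of each tested member by role, with bars for the SE and colour for the call in edgeR's quasi-likelihood test. Docking proteins lie to the right of 0, and inner arm chains lie on both sides, from 4.47 for Dnah6 to -1.40 for Dnah2.

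The 4 broadly expressed members did not move together. Camsap3, which caps microtubule minus ends and is used in many epithelia, stood at 30.4, 26.8 and 30.8 CPM in wild-type and 158, 181 and 196 CPM in Ts1Cje. It rose by 2.60 ± 0.10 on the log2 scale (adjusted p = 4.1e-07), with no overlap. Cyb5d1 fell by 0.39 (SE 0.12, adjusted p = 0.0268), a call lost without any 1 of 4 libraries (wild-type replicates 1 and 2, Ts1Cje replicates 2 and 3; adjusted p 0.0566 to 0.0821). Dync1h1, the cytoplasmic dynein heavy chain, gave 0.11 ± 0.06 (adjusted p = 0.167). Ift88, of the transport machinery that builds all cilia, gave 0.27 ± 0.11 (adjusted p = 0.0733), and 0.0488 with the lot number as a replicate block.

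Other motile cilium genes, listed by role and outside the membership rule, were more often called higher than lower. Of 108, 67 were tested: 32 were higher (47.8%), 3 were lower (4.48%) and 32 were not called, beside 23.3% and 20.5% of all tested genes, with a median log2 fold change of 0.62. Here too a gene rare in wild-type cells could pass the count filter through its Ts1Cje libraries alone. These counts therefore describe the tested genes only, and the same limit holds for rare genes in the lists below. Dnajb13, a spoke protein, rose by 4.23 ± 0.56 (adjusted p = 0.00023), Drc1, of the nexin-dynein link, by 3.12 ± 0.44 (0.000352), and Spef2, of the central apparatus, by 3.20 ± 0.53 (0.000912). Of 7 further transcription factors of ciliated cells, 3 were tested, and these 3 rose. Noto, which acts upstream of Foxj1 in the node, had 3 and 78 counts, a ratio of 26.5 (exact 95% interval 8.75 to 131, counting error only). Trp73 rose by 2.77 ± 0.49 (adjusted p = 0.00229) and Myb by 1.41 ± 0.24 (adjusted p = 0.00117). Both are known from multiciliated cells, but neither is particular to them. The 3 genes that fell were Mns1 (-0.76 ± 0.09, adjusted p = 0.000125), Iqcg (-0.34 ± 0.10, adjusted p = 0.016) and Tcte1 (-1.70 ± 0.45, adjusted p = 0.0122). With genes under a mean log2 CPM of 1 left out, 17 of these genes were called higher, and without wild-type replicate 3 the count lower was 1.

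Genes used by motile and non-motile cilia alike were read from 2 lists. Of 32 intraflagellar transport genes, which carry cargo along all cilia, 0 rose and 7 fell (21.9%) in edgeR's test, with a median log2 fold change of -0.06. The share that fell is near the 20.5% of all tested genes called lower. At an unadjusted p under 0.05 the count higher was 3, with DESeq2 it was 0, and with the replicate block it was 2, as it was without wild-type replicate 1. The count lower was 4 when either wild-type replicate 2 or Ts1Cje replicate 1 was left out. Examples are Dync2h1, the retrograde motor, by -0.79 ± 0.08 (adjusted p = 5.59e-05), Kif3a, of the anterograde motor, by -0.83 ± 0.10 (0.000121), and Ift140 by -0.62 ± 0.10 (0.000912). Of 32 primary cilium and transition zone genes, 3 rose (9.38%) and 4 fell (12.5%), beside 23.3% and 20.5% of all tested genes, with a median of -0.03. The count higher was 7 at an unadjusted p under 0.05, 1 with upper-quartile factors, or with wild-type replicate 3 or Ts1Cje replicate 2 left out, and 5 with the replicate block, and the count lower was 2 without wild-type replicate 2 or Ts1Cje replicate 3. The called changes in both lists were under 2-fold.

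Genes for multiciliogenesis, the making of many cilia by a cell, were called in both directions. Of 17, 12 were tested, of which 5 rose (3 without wild-type replicate 2) and 5 fell, 41.7% each way beside 23.3% and 20.5% of all tested genes, with a median log2 fold change of -0.09. Gmnc, at the head of that programme, had 4 counts over the wild-type libraries and 18 over the Ts1Cje ones. Mcidas, next to it, had 0 and 9, which is 3.06-fold higher with wild-type set to the floor of 3 counts. Deup1, which builds the many basal bodies, had 19 and 9. Ccno, which also stands in the list of embryonic node markers, rose by 1.97 ± 0.49 (adjusted p = 0.0133).

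Markers of other ciliated tissues varied. Of 20 embryonic node markers, 18 were tested, of which 11 rose (61.1%, beside 23.3% of all tested genes) and 0 fell in edgeR's test, with a median log2 fold change of 1.66. None fell at an unadjusted p under 0.05 or with DESeq2 (0 in each), and 1 was called lower without Ts1Cje replicate 2. Foxj1, Pkd1l1 and Rfx3 belong to that list as well. Foxa2 stood at 8.12, 4.65 and 4.28 CPM in wild-type and 106, 136 and 121 CPM in Ts1Cje, Chrd rose by 4.49 ± 0.27 (adjusted p = 8.82e-06) and Shh by 5.11 ± 0.77 (0.000945). T, the notochord and streak factor, was at 233 ± 116 CPM in wild-type and 139 ± 26.0 CPM in Ts1Cje and was not called (-0.74 ± 0.38, adjusted p = 0.183). Foxa2 is also an endoderm marker, so the lists are not independent.

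Spermatid, airway and choroid markers were also read. Of 14 spermatid markers 4 had no count in any library and 1, Dkkl1, was tested. Dkkl1 was called higher, with a log2 fold change of 1.94. The summed level of the list was 1.62 to 2.87 CPM in wild-type and 5.12 to 7.08 CPM in Ts1Cje. Of 9 airway multiciliated markers 3 had no count and 1 was tested, which was called higher with a log2 fold change of 1.73. The sums were 1.19 to 1.30 CPM against 3.46 to 4.89 CPM. Of 10 ependyma and choroid plexus markers 6 were tested and 4 rose (66.7%, beside 23.3% of all tested genes). Their sums of 61.6 to 83.3 CPM against 403 to 552 CPM came mainly from Clic6 and Otx2, the latter also in the epiblast list. Which of these sources the ciliary counts came from was not tested.

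**Figure D4:**
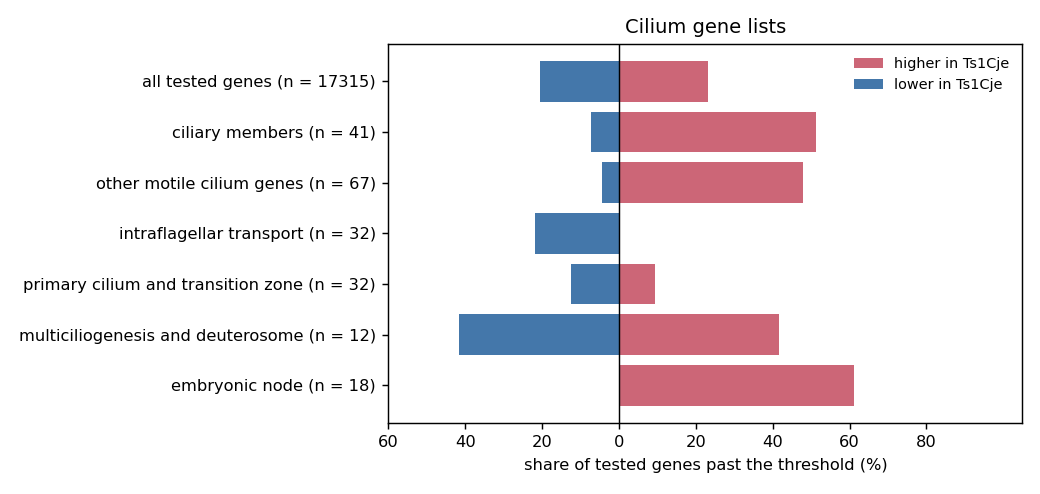
Share of tested genes (percent) called higher, to the right, or lower, to the left, in Ts1Cje for all tested genes, the ciliary members and 5 other lists. All tested genes give 23.3% and 20.5%, the ciliary members 51.2% and 7.32%, and intraflagellar transport genes 0% and 21.9%.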

How the data were processed

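The authors deposited a table of raw read counts per gene and a second one of TPM for these libraries. Per the submitters' processing notes, FastQC 0.11.7, Trimmomatic 0.38, HISAT2 2.1.0, featureCounts 1.6.3 and mm10 were used. No source used here gives their order, their settings or the counting strand. Per the labels' protocols, libraries were poly(A)-selected and made with a directional kit. Counts ran from 16577065 to 19010856 per library.

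Members and gene lists were chosen with earlier results of these data known. Roles of 7 members were given after the members were seen, and the role of Dnali1 was corrected after its counts were seen. Counts were filtered in R 4.3.3 by filterByExpr of edgeR 4.0.16, with minimums of 10 counts and of 15 in total, scaled with TMM, and compared over all 6 libraries with edgeR's quasi-likelihood test, with Benjamini-Hochberg adjustment over the 17315 genes kept and a threshold of 0.05. The SE is approximate: the size of the log2 fold change was divided by the root of the F statistic. The script was tested on simulated data. For 0 counts in a group, folds were computed with that group set to 3 counts in all, which leaves out counting error in the other group. For 1 to 3 counts an exact 95% binomial interval was used. That interval covers counting error only, since the reads carry no molecular identifiers, and neither value covers the spread between libraries.

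Named genes are the transcription factors, every Dnah gene, the genes named in the membership rule, up to 4 called and 2 uncalled genes per role, the broadly expressed members, and the leading genes of each list. Gmnc, Mcidas, Deup1, Ccno, Shh, Csf1r, Spi1, Ptprc, Armc4, Maats1, Dnali1 and Dnaaf4 were named for their known role after their values were seen. A ranking of genes by correlation with Foxj1 was planned and is not given, because the libraries form 1 cluster per genotype. Alternatives were other scalings, DESeq2 1.42.0, limma 3.58.1 (voom, and trend on log2(TPM + 1) and log2(TPM + 0.1)), other count filters, a replicate block and leaving out each library. Coordinates of 59 of 60 members were identical in GENCODE M21, and 31 members share exonic bases with another gene.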

Additional observations from a re-analysis of the deposited data

How the results depend on the processing

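The direction of the ciliary result was kept in every alternative run, with 18 to 23 genes higher and 2 or 3 lower, except that 10 were higher when genes under a mean log2 CPM of 1 were left out, since 23 ciliary genes were then tested. Leaving out 1 library at a time gave 18 to 22 higher. Of 26 called members, 15 kept the call in every alternative that tested them. Dnah10, Dnah5 and Hydin lost theirs with limma-trend on log2(TPM + 1) (adjusted p 0.0648, 0.0527 and 0.0551), and Wdr78 without Ts1Cje replicate 2 or 3 (0.0706 and 0.0551), while Cfap73 was called without Ts1Cje replicate 3 (0.0370). Broadly expressed members called lower ran from 0 to 1 when a library was left out. Log2 fold changes that changed sign belonged to uncalled genes, and the cause was not tested. They were Dnah17 (0.00 at the higher CPM minimum, and -0.08 to 0.08 with 1 library left out), Dnah8 (-0.31 to 0.72 with 1 left out), Ropn1l (-0.23 to 0.09), Rsph9 (-0.01 with upper-quartile factors, and -0.15 to 0.14 with 1 left out) and Ccpg1os (-0.01 to 0.29, below 0 without wild-type replicate 1).

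The lot numbers are not said to pair samples. Same-numbered libraries deviated together with r of 0.219, 0.0589 and 0.202, so not every pair passed 0.1, although every library correlated best with its own number, which is a hint from the data only. With the replicate block, ciliary counts were 21 higher and 3 lower, and broadly expressed members called higher went from 1 to 2, the added one being Ift88. Depth limits the rarest members, and 15 ciliary genes, among them Gm44503 with its shared exons, were not tested.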

Other observations

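Beyond the members, 190 genes carry a deposited annotation to the axoneme or motile cilium, some of them also among the genes listed by role. They were gathered after the data were seen. Of 123 tested, 37 were higher (30.1%) and 20 lower (16.3%) in Ts1Cje by edgeR's quasi-likelihood test, beside 23.3% and 20.5% of all tested genes, with a median log2 fold change of 0.02, close to that of all tested genes. Higher were Ttll10, a tubulin-modifying enzyme, with 2 counts in wild-type and 77 in Ts1Cje (ratio 39.3, exact 95% interval 10.5 to 330, counting error only), and genes better known outside the cilium such as Stard10 (2.32 ± 0.11) and Met (2.45 ± 0.19). Lower were Lca5 (-1.04 ± 0.12) and Dzip1l (-1.06 ± 0.14), of the ciliary base and transition zone, Spag4 (-1.29 ± 0.21), and Acta2 (-2.98 ± 0.38), a smooth muscle actin.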
